A study of Mus musculus with 38 samples.

Results

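The BMP receptors are the 8 genes Bmpr1a, Bmpr1b, Acvr1, Acvrl1, Bmpr2, Acvr2a, Acvr2b and Eng. They were chosen by name, and all 8 were found among the 13260 genes of the deposited table. Their levels were followed in 38 RNA-seq libraries of 100 sorted cells each, from bone and marrow of C57Bl/KaLwRij mice that entered the experiment at 8 to 10 weeks of age. Healthy mice received PBS. Myeloma-bearing mice received 1000000 cells of 5TGM1-GFP, a mouse myeloma line marked with green fluorescent protein, given intravenously, and tissue was taken on day 23. No mouse was given a drug. Endothelial cells (EC) were sorted as CD31+ and free of blood markers, with 5 libraries from healthy and 5 from myeloma-bearing mice. Stromal progenitors (SP) were CD31- Sca1+ ALCAM-, also with 5 and 5. Osteoprogenitors (OP) were CD31- Sca1- ALCAM+, with 4 and 4. GFP+ myeloma cells (MM) came from the bone lining niche and from the central marrow of myeloma-bearing mice, with 5 libraries each. The tumour is thus 1 cell line, and the MM libraries have no healthy counterpart. Libraries are named by the letter in their labels, and the series text says that replicates came from different mice.

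Bone morphogenetic proteins (BMPs) are secreted ligands of the TGF-beta family. They bind a complex of type I and type II serine/threonine kinase receptors, in which the type II receptor phosphorylates the type I receptor and the type I receptor then phosphorylates Smad1, Smad5 and Smad9. BMP signalling is known for driving bone formation from progenitors and, through the type I receptor ALK1 and its co-receptor endoglin, for shaping blood vessels.

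The promoters of Eng, Bmpr1a and Bmpr1b are shown because these genes had 3 different patterns: Eng was highest in EC, Bmpr1a was highest in SP and OP, and Bmpr1b was detected mainly in SP. Each sequence is the 250 bases before a transcript start in RefSeq on GRCm38.p6, read 5′ to 3′ on the strand of the gene, with every CG pair in capitals. The Eng window is chr2:32646345-32646594 on the plus strand, the Bmpr1a window is chr14:34502547-34502796 on the minus strand, and the Bmpr1b window is chr3:141982265-141982514 on the minus strand. Bmpr1b has 3 starts in this set, and the most upstream is printed. All 3 lie inside the gene, whose annotated 5′ end is at 142169585, so no window here covers that end. The libraries do not tell which start was used. Of the 8 members 7 matched an entry, and Acvrl1 did not.
Eng: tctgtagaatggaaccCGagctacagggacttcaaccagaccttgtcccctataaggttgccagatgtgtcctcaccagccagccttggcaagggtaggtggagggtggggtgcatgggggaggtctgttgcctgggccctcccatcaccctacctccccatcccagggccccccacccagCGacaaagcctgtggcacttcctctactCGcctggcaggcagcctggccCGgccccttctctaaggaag
Bmpr1a: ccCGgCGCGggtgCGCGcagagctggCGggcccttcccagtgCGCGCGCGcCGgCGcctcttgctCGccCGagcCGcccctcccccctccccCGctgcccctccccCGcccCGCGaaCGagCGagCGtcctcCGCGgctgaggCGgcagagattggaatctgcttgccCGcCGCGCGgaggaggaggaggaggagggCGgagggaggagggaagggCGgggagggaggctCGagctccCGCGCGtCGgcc
Bmpr1b: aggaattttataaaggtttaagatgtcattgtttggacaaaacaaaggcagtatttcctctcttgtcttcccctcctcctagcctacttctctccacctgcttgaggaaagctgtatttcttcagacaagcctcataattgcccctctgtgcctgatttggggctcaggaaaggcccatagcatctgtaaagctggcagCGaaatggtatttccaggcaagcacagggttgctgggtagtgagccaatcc
The Bmpr1a window held 36 CG pairs, more than 97.4% of the 32851 windows of this length, whose median was 6. The Eng window held 4 and the printed Bmpr1b window held 1, while both other Bmpr1b windows held 5. The remaining windows were CG-rich, with 46 pairs for Acvr1, 49 for Acvr2a, 24 for Acvr2b and 22 for Bmpr2. The letters GGCGCC, a GC-rich element that Smad1 and Smad5 bind, read on both strands, occurred 1 time each in the Bmpr1a and Bmpr2 windows and in 9.59% of all windows. The letters AGGAAG, which hold the GGAA core of ETS factors, read on both strands, occurred 2 times in the Eng window, 1 time in the Bmpr2 window and in 29.5% of all windows. These matches describe the sequence and were not tested as binding sites.

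The values are RPKM, read counts scaled to the length of the gene's exons and to the size of the library, so that levels can be set side by side between genes. Whole reads could be recovered from the RPKM values, and the libraries held 9735031 to 34883291 reads on genes. Markers were summed in each library to check the sorts. The 8 endothelial markers summed to between 2010 and 4400 RPKM in EC and to at most 9.66 RPKM in SP and OP, 6 plasma cell markers summed to between 3280 and 9920 RPKM in MM, and 10 osteoprogenitor markers summed to between 10400 and 69500 RPKM in OP. The 6 stromal progenitor markers summed to between 1110 and 3110 RPKM in SP and 148 to 545 RPKM in OP, but to between 2720 and 8970 RPKM in EC, mostly Ly6a (Sca1, mean 4440 RPKM in EC and 1400 RPKM in SP), so this list separated SP from OP and not from EC. The 5 smooth muscle or pericyte markers summed to 0.0812 to 681 RPKM in EC (median 256) and 20.9 to 567 RPKM in SP (median 134). Their part in the receptor levels of EC was not tested. All 8 OP libraries also carried chondrocyte genes, with Col2a1 at 1060 RPKM or more. SP carried these genes at a lower level, with the 6 chondrocyte markers summing to 76.6 to 520 RPKM against 1700 to 5620 RPKM in OP. The SP libraries healthy L and myeloma E stood apart with neutrophil markers summing to 7230 and 8060 RPKM, against at most 180 RPKM in the other SP libraries. In pools of sorted cells, fewer expressing cells and less RNA per cell cannot be told apart.

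**Figure D1:**
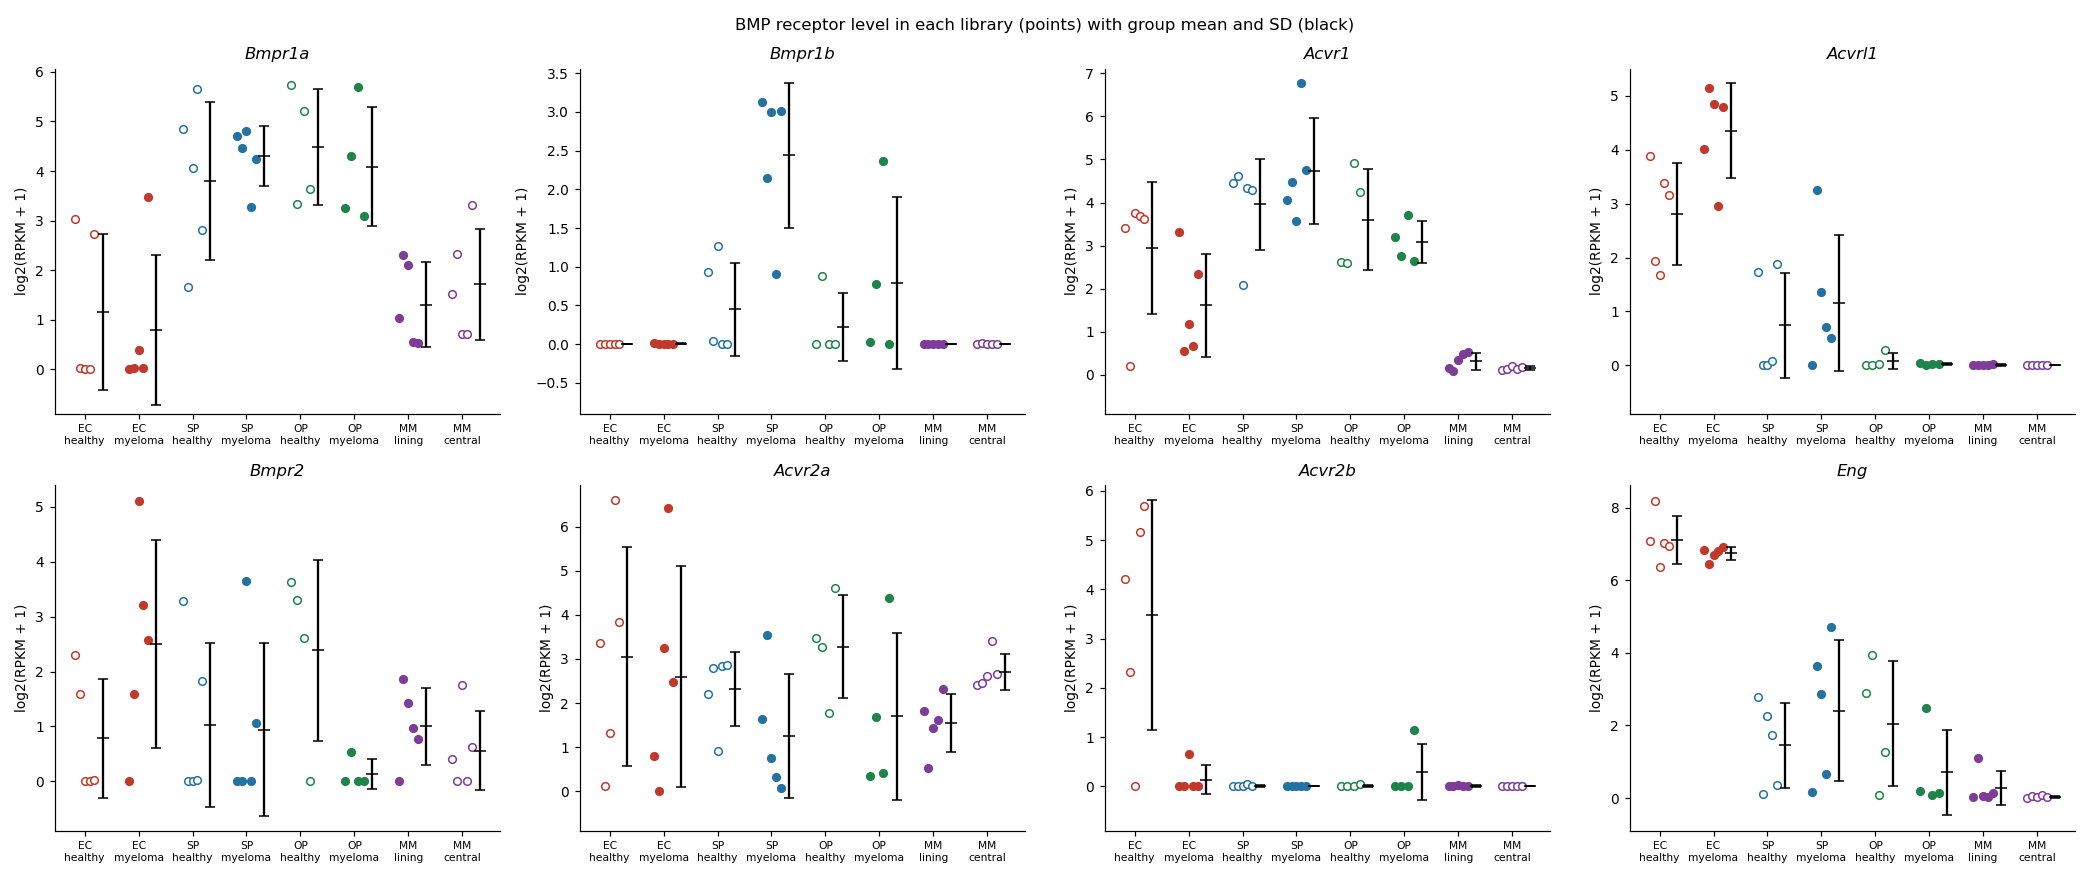
Level of each BMP receptor, as log2(RPKM + 1), in all 38 libraries by group (EC red, SP blue, OP green, MM purple; filled points are myeloma-bearing mice or, for MM, the bone lining niche; black bars are group mean and SD). Eng and Acvrl1 were highest in EC, Bmpr1a and Acvr1 were high in SP and OP, and Bmpr1b exceeded 1 RPKM in 5 SP libraries and 1 OP library.

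Bmpr1a and Acvr1 were the main type I transcripts of SP and OP, Acvr1 and Acvrl1 those of EC, and Bmpr1a that of MM. In EC the highest of the 4 type I receptors by RPKM was Acvr1 in 3 and Acvrl1 in 2 of the 5 healthy libraries, and Acvrl1 in 5 of 5 libraries of myeloma-bearing mice. Of the summed group means, Acvr1 made up 48.1% and Acvrl1 38.3% in healthy EC, against 11.2% and 81.1% in EC of myeloma-bearing mice. As the mean of the shares within each library the order in healthy EC was the other way, with Acvr1 at 44.5% (SD 29.5, n = 5) and Acvrl1 at 46.2% (SD 29.7, n = 5), so neither led there beyond the spread. In EC of myeloma-bearing mice these means were 12.1% (SD 14.3, n = 5) and 82.6% (SD 17.2, n = 5). Bmpr1a led in 7 of 8 OP libraries and 9 of 10 MM libraries, while in SP it led in 5 of 10 libraries and Acvr1 in the other 5. In MM the share of Acvr1 within a library reached 49.8% in the bone lining, where it averaged 22.9% (SD 23.1, n = 5), and averaged 8.62% (SD 8.34, n = 5) in the central marrow. Acvr1 held 3 to 33 reads in the MM libraries, so these shares rest on few reads. Bmpr1b led in none of the 38. The summed RPKM of the type I receptors was 23.1 ± 11.9 (SD, n = 10) in EC, 51.3 ± 28.0 (SD, n = 10) in SP, 36.2 ± 23.3 (SD, n = 8) in OP and 2.72 ± 2.63 (SD, n = 10) in MM. These shares and sums are given as a description and were not tested.

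**Figure D2:**
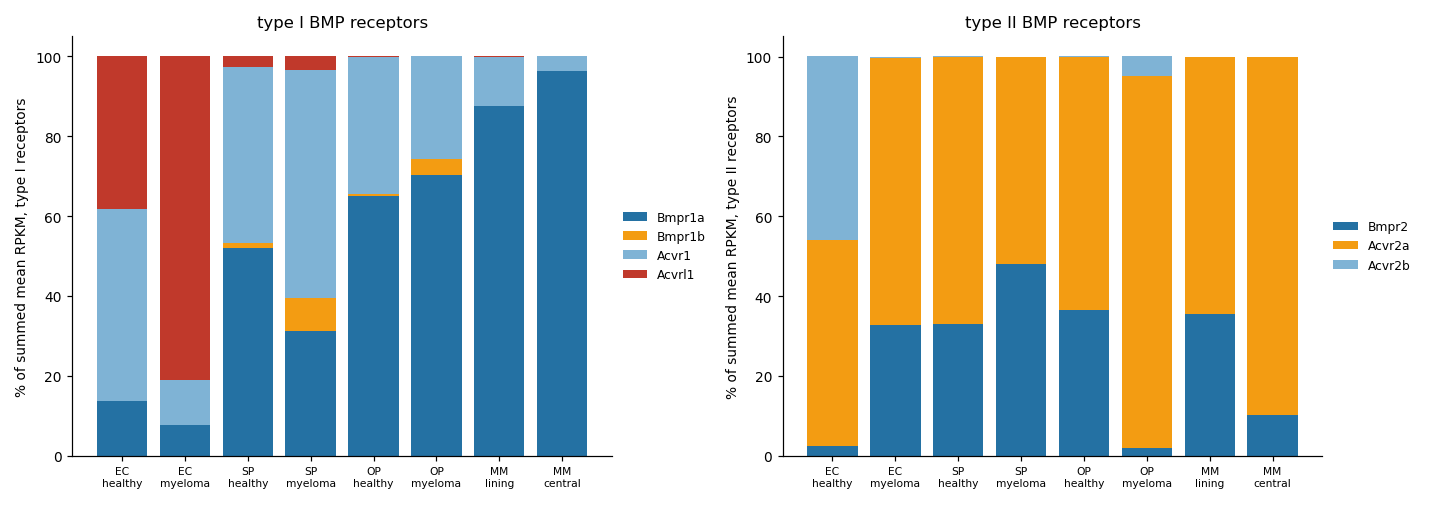
Share of each receptor in the summed group mean RPKM of the type I receptors (left) and type II receptors (right), in percent, for the 8 groups. Acvrl1 made up 38.3% of the type I sum in healthy EC and 81.1% in EC of myeloma-bearing mice, and Bmpr1a made up 87.6% in the bone lining and 96.4% in the central marrow MM libraries.

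Bmpr1a encodes ALK3, a type I receptor for BMP2 and BMP4 (chromosome 14, 34411061 to 34503336 on GRCm38.p6, minus strand). It was detected in every SP and OP library. In SP it ran from 2.15 RPKM over a median of 19.5 to 49.2 RPKM, in OP from 7.47 over 15.1 to 52.6 RPKM, and in MM from 0.437 over 1.46 to 8.95 RPKM. In EC the lowest value was 0.0078 RPKM, the median 0.012 and the highest 10.2 RPKM, and 6 of the 10 libraries held exactly 1 Bmpr1a read. The EC median lay below every SP and OP library, but 3 EC libraries (healthy C at 7.17 and O at 5.65 RPKM, and myeloma J at 10.2 RPKM) fell within the SP range. The 10 osteoprogenitor markers summed to 120 RPKM in healthy C and 107 in healthy O, against 17.4 to 41.5 in the other healthy EC libraries, and to 655 RPKM in myeloma J, against 21.4 to 363 in the other myeloma EC libraries. The 6 chondrocyte markers summed to 24.8 RPKM in myeloma J and to at most 1.11 RPKM in the other EC libraries. The part of these genes in the Bmpr1a values was not tested. Cell types were compared with limma on log2(RPKM + 1) over all 38 libraries, and a difference was called with a Benjamini-Hochberg adjusted p below 0.1 over 12683 genes and an absolute log2 difference above 1. On this scale Bmpr1a was lower in EC than in SP by -3.08 (SE 0.57, adjusted p = 5.48e-05) and than in OP by -3.31 (SE 0.60, adjusted p = 4.33e-05). It was higher in SP than in MM by 2.54 (SE 0.57, adjusted p = 0.000399) and in OP than in MM by 2.78 (SE 0.60, adjusted p = 0.0003). In the order OP, SP, MM, EC, neither OP and SP (difference SP minus OP -0.23, SE 0.60, adjusted p = 0.937) nor MM and EC (difference EC minus MM -0.54, SE 0.57, adjusted p = 0.489) met the call. With voom-limma on the recovered reads of all 38 libraries, EC minus MM was -3.61 (SE 1.31, adjusted p = 0.0222) and was called, beside a median of -1.17 over all genes.

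Bmpr1b encodes ALK6, a type I receptor with a leading part in cartilage condensation (chromosome 3, 141837135 to 142169585, minus strand). It was close to absent from EC and MM, where 9 of 10 libraries of each held 0 reads and the remaining library held 1 read. In SP it ran from 0 over a median of 1.15 to 7.70 RPKM, and 5 of 10 libraries exceeded 1 RPKM. In OP 1 of 8 libraries exceeded 1 RPKM, the myeloma I library at 4.15 RPKM. On the log2(RPKM + 1) scale SP exceeded EC (EC minus SP -1.44, SE 0.27, adjusted p = 6.29e-05) and MM (1.44, SE 0.27, adjusted p = 3.34e-05). With a group near 0 reads such a difference depends on the added 1 RPKM and is no bound on a fold change. Genes entered this fit with at least 4 libraries above 1 RPKM, which Bmpr1b met only through SP, where it was high. The p-values of Bmpr1b between cell types carry that selection. SP minus OP was 0.94 (SE 0.28), which met the adjusted p (0.0374) but not the size of the call. In libraries of myeloma-bearing mice alone this difference was 1.65 and was called (adjusted p = 0.0287, with 3.18% of 11836 genes called higher), and it was also called with an added 0.1 RPKM in place of 1 (1.98, adjusted p = 0.0565) and without letter I (1.39, adjusted p = 0.000113). OP minus MM was 0.51 (SE 0.28, adjusted p = 0.168). The study singled out Bmpr1b on these same libraries, so its pattern here is not independent evidence.

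Acvr1 encodes ALK2, a type I receptor that binds BMPs and whose activating mutation causes heterotopic bone formation (chromosome 2, 58446438 to 58566828, minus strand). It ran from 3.24 over a median of 20.2 to 108 RPKM in SP, from 5.09 over 6.98 to 29.3 RPKM in OP, and from 0.155 over 6.51 to 12.5 RPKM in EC. In MM no library exceeded 0.454 RPKM. Every SP and OP library lay above every MM library, as in 4.93% of 12683 genes. Acvr1 was higher than in MM by 4.10 in SP (SE 0.48, adjusted p = 5.13e-09), 3.10 in OP (SE 0.51, adjusted p = 5.23e-06) and 2.03 in EC (SE 0.48, adjusted p = 0.000746), and it was lower in EC than in SP by -2.07 (SE 0.48, adjusted p = 0.00114). The neighbours SP and OP (1.00, SE 0.51, adjusted p = 0.308) and EC and OP (EC minus OP -1.07, SE 0.51, adjusted p = 0.134) were not called, although EC minus OP was called without letter M (-1.33, adjusted p = 0.0623).

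Acvrl1 encodes ALK1, the type I receptor through which BMP9 and BMP10 act on endothelium (chromosome 15, 101128522 to 101145336, plus strand). It was above 1 RPKM in all 10 EC libraries, from 2.20 over a median of 11.6 to 34.4 RPKM. In SP it ran from 0 over 0.526 to 8.49 RPKM and was above 1 RPKM in 4 of 10 libraries, the highest being myeloma E, 1 of the pair rich in neutrophil genes. In OP no library exceeded 0.225 RPKM, and in MM 9 of 10 libraries held 0 reads and the other held 1. Acvrl1 was higher in EC than in SP by 2.63 (SE 0.37, adjusted p = 4.43e-07), than in OP by 3.53 (SE 0.39, adjusted p = 2.47e-09) and than in MM by 3.58 (SE 0.37, adjusted p = 2.43e-10). SP and OP were not called apart (0.90, SE 0.39, adjusted p = 0.202). SP minus MM was 0.95 (SE 0.37, adjusted p = 0.0377), below the size of the call, which it met without letter D, I, J, L, M or N (at most 1.09, adjusted p from 0.0264 to 0.0583). With voom-limma on the recovered reads of all 38 libraries both were called, SP minus OP at 3.28 (SE 1.07, adjusted p = 0.0567) and SP minus MM at 5.04 (SE 0.99, adjusted p = 7.36e-05).

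Of the 3 type II receptors, Bmpr2 and Acvr2a were called in no cell type pair over all 38 libraries, and both varied widely between libraries of the same group. Bmpr2, the type II receptor that is specific to BMPs (chromosome 1, 59764279 to 59878081, plus strand), ranged from many reads to none. It held 0 reads in 3 EC, 5 SP, 4 OP and 3 MM libraries, and its highest values were 33.4 RPKM in EC, 11.5 in SP, 11.4 in OP and 2.63 in MM. None of the 6 cell type pairs was called (adjusted p from 0.231 to 0.915), while in myeloma-bearing mice alone EC exceeded OP by 2.37 (adjusted p = 0.0338, with 9.48% of 11836 genes called higher) and MM by 1.72 (adjusted p = 0.034, with 17.9% called higher). The table counted Bmpr2 over 3507 bases of exon, as its RPKM and reads imply, while its GENCODE exons span 17983 bases, so reads in the rest of the transcript did not enter its level.

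Acvr2a, a type II receptor shared by activins and BMPs (chromosome 2, 48814109 to 48903264, plus strand), was detected in every SP, OP and MM library and in 9 of 10 EC libraries. It led the 3 type II receptors in 9 of 10 MM, 7 of 10 SP, 5 of 8 OP and 4 of 10 EC libraries. It ran from 0.449 over a median of 4.16 to 9.62 RPKM in MM, from 0.0497 over 2.85 to 10.6 RPKM in SP and from 0.261 over 5.56 to 23.3 RPKM in OP. EC had both the lowest and the highest values, with 0 reads in myeloma E and 96.1 and 85.6 RPKM in healthy N and myeloma I, around a median of 6.54 RPKM. No cell type pair was called (adjusted p from 0.334 to 0.82). Acvr2a was the member with the highest level in MM (mean 3.96 RPKM, SD 2.55, n = 10), ahead of Bmpr1a at 2.53 RPKM (SD 2.68, n = 10), a difference within the spread between libraries that was not tested.

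Acvr2b, the other type II receptor shared by activins and BMPs (chromosome 9, 119401583 to 119442148, plus strand), was above 1 RPKM in 4 EC libraries of healthy mice and in 1 OP library. In the healthy EC libraries it was 17.4 (C), 3.98 (L), 0 (M), 34.9 (N) and 50.9 RPKM (O). In the EC libraries of myeloma-bearing mice D, E, I and J held 0 reads and G held 16 reads (0.578 RPKM). In SP and MM no library held more than 1 read, and in OP the myeloma J library alone exceeded that, with 25 reads (1.20 RPKM). Averaged over both conditions, EC exceeded SP by 1.80 (SE 0.38, adjusted p = 0.000402), OP by 1.66 (SE 0.41, adjusted p = 0.00194) and MM by 1.80 (SE 0.38, adjusted p = 0.000219). The EC libraries of myeloma-bearing mice added at most 16 reads to these differences. Genes entered this fit with at least 4 libraries above 1 RPKM, which Acvr2b met only through EC, where it was high. The p-values of these 3 differences carry that selection. Acvr2b was counted over 1701 bases of 3928 bases of GENCODE exon.

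Eng encodes endoglin, the co-receptor that binds BMP9 and BMP10 beside ALK1 (chromosome 2, 32646595 to 32682669, plus strand). It was the most abundant member and the steadiest in EC, from 81.0 over a median of 117 to 289 RPKM (SD 0.50 on the log2 scale, n = 10, against 1.19 to 2.37 for the other members above 1 RPKM in at least 3 EC libraries). Every EC library was at least 81.0 RPKM and every other library at most 25.4 RPKM, a separation seen in 0.986% of 12683 genes. Eng was higher in EC than in SP by 5.00 (SE 0.51, adjusted p = 4.35e-10), than in OP by 5.55 (SE 0.54, adjusted p = 1.4e-10) and than in MM by 6.77 (SE 0.51, adjusted p = 7.02e-14). The study lists Eng as an endothelial marker from these cells, so this contrast is not independent evidence.

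Eng was also detected outside EC. It exceeded 1 RPKM in 6 of 10 SP libraries, with 25.4 RPKM in myeloma J and 11.5 RPKM in myeloma E, and in 4 of 8 OP libraries, with 14.5 RPKM in healthy M. The 8 endothelial markers summed to 7.79, 1.96 and 0.774 RPKM in these 3 libraries. In 9 of the 10 SP and OP libraries with Eng above 1 RPKM this sum was below the Eng level, and in SP healthy C it was above (9.66 against 5.92 RPKM), while in EC the same markers summed to at least 2010 RPKM. Their part in these Eng values was not tested. SP exceeded MM by 1.78 (SE 0.51, adjusted p = 0.00532) and OP exceeded MM by 1.22 (SE 0.54, adjusted p = 0.076). The OP call was lost without the libraries of letter D, G, I, L or M, with a difference of 0.90 without G and 0.91 without M, and it was 0.56 in myeloma-bearing mice alone. SP and OP were not called apart (0.55, SE 0.54, adjusted p = 0.718).

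**Figure D3:**
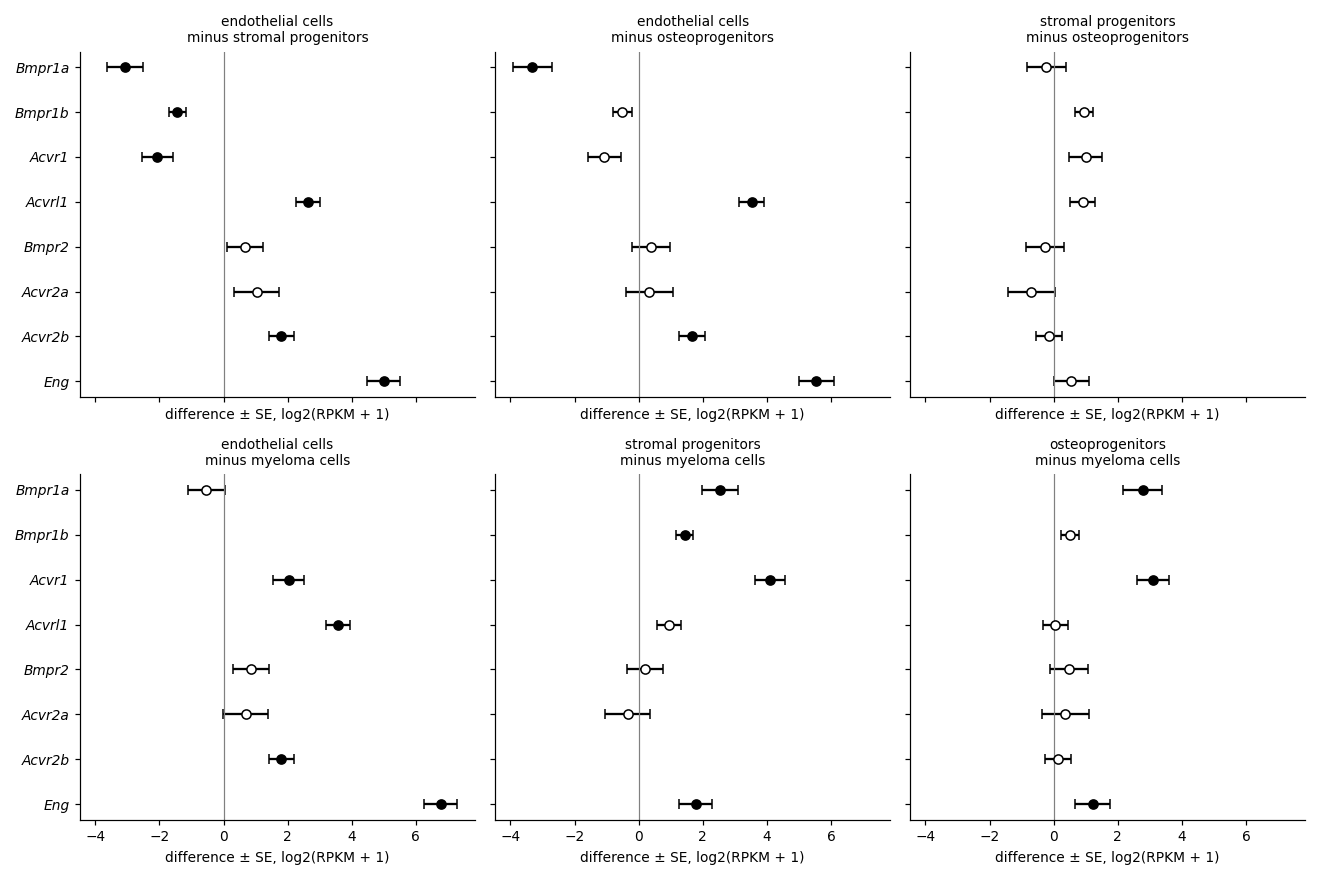
Difference in log2(RPKM + 1) between cell types for the BMP receptors (points, with SE; filled where called; pairs in which both cell types held at most 3 reads in every library are left out). Acvrl1, Acvr2b and Eng lie to the right in all 3 panels of EC, and no point is filled between SP and OP.

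Over the whole set, 6 of 8 members were called between EC and SP, against 25.5% of the 12683 genes. EC and OP differed in 4 of 8 members (27.9% of genes), EC and MM in 4 (43.2% of genes), SP and MM in 4 (41.9% of genes) and OP and MM in 3 (40% of genes). SP and OP differed in 0 of 8 (8.48% of genes), with 2 members at an unadjusted p below 0.05 (17.4% of genes). Under alternatives 1 member (Acvrl1) was called higher in SP with voom-limma on the recovered reads, beside 2.89% of 13260 genes, 2 (Bmpr1b and Acvrl1) with an added 0.1 RPKM, beside 3.07% of 12683 genes, and 1 (Bmpr1b) without letter I, beside 2.95% of 12452 genes. Against MM, all members called by limma on log2(RPKM + 1) were higher in the niche cell type. With voom-limma on the recovered reads of all 38 libraries, 6 of 8 members were called between EC and SP (28.4% of 13260 genes), 5 between EC and OP (31.4%), 1 between SP and OP (9.23%), 5 between EC and MM (56%), 5 between SP and MM (52.8%) and 4 between OP and MM (46.3%), and Bmpr1a was the 1 member lower in the niche cell type (EC) than in MM. The median difference of the 8 members was 0.85 for EC minus SP beside -0.12 over all genes, where 3 called members were higher and 3 lower in EC. It was 0.36 for EC minus OP beside -0.18 over all genes, and 0.20 for SP minus OP beside -0.019. Against MM the median was 1.33 for EC beside -0.24 over all genes, 1.19 for SP beside -0.12 and 0.49 for OP beside -0.092.

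No BMP receptor was called between myeloma-bearing and healthy mice in fits to the libraries of 1 cell type. Bmpr1b in SP and Acvr2b in EC were called when all 38 libraries entered the fit, both with limma on log2(RPKM + 1) and with voom-limma on the recovered reads, the kind of test the study's methods name for read counts. With all 38, limma and voom-limma called 1.18% and 1.89% of all genes in EC, 0.221% and 0.618% in SP, and 0.189% and 0.211% in OP. In the fits to 1 cell type, 6 members in EC passed the filter of 1 RPKM in at least 4 libraries and 0 were called (0% of 7880 genes). In SP 7 were tested and 0 called (0% of 8747 genes), and in OP 4 were tested and 0 called (0.0115% of 8664 genes). At an unadjusted p below 0.05 limma found 1 member in EC (Acvr2b), 1 in SP (Bmpr1b) and 0 in OP, beside 5.25%, 5.0% and 4.87% of all genes tested. The 7 gene and cell type pairs left out by the filter are Bmpr1a and Bmpr1b in EC, Acvr2b in SP, and Bmpr1b, Acvrl1, Bmpr2 and Acvr2b in OP.

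**Figure D4:**
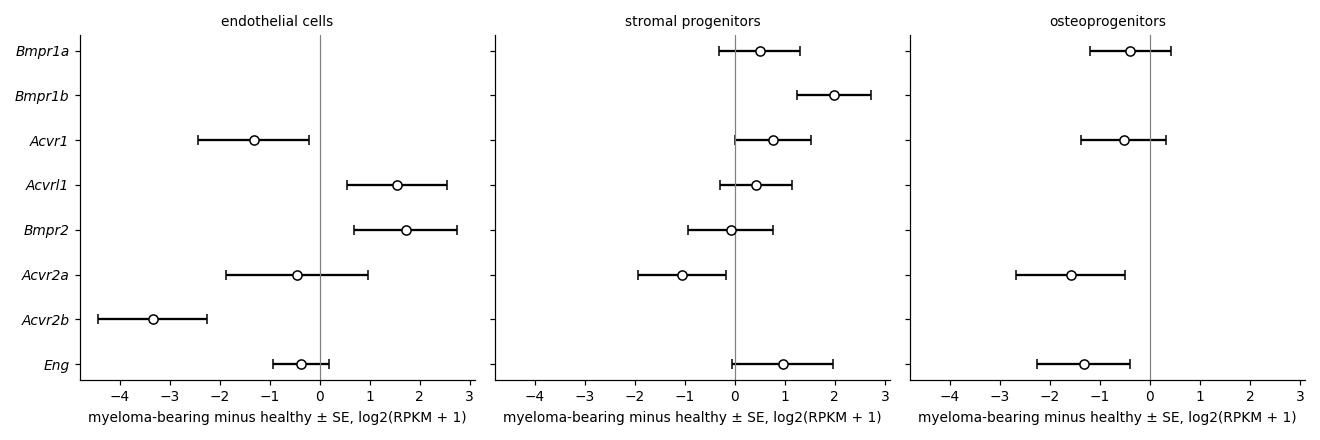
Change with myeloma in log2(RPKM + 1), myeloma-bearing minus healthy with SE, for the BMP receptors tested in EC, SP and OP; open points were not called. Acvr2b in EC (-3.34) and Bmpr1b in SP (1.99) lie farthest from zero.

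Bmpr1b had higher values in most SP libraries of myeloma-bearing mice, a difference that was called or not depending on which libraries were fitted together. The healthy SP libraries held 0.903 (C), 0.0329 (L), 1.4 (M), 0 (N) and 0 RPKM (O), and the libraries of myeloma-bearing mice held 7.70 (D), 3.43 (E), 6.99 (G), 0.879 (I) and 7.03 RPKM (J). In myeloma-bearing mice 4 of 5 libraries lay above all healthy libraries, and I lay within the healthy range. The share of all genes with such a separation was not counted. The group means on the log2(RPKM + 1) scale were 0.45 and 2.44, a difference of 1.99 (SE 0.74) with a two-sided exact permutation p of 0.0238, where 0.00794 is the smallest p that 5 against 5 can give. In the fit to the SP libraries alone the limma adjusted p was 0.874, and voom-limma on their recovered reads gave 5.85 (SE 2.0, adjusted p = 0.871). Of the 5 SP libraries above 1 RPKM 4 were from myeloma-bearing mice, so Bmpr1b entered this fit through the group where it was high, and its p-values carry that selection. With no filter on low values, over 12960 genes, the limma adjusted p was 0.887. With the spread estimated over all 38 libraries the same difference was called (adjusted p = 0.0139, with 0.15% of 12683 genes called higher), as it was with voom-limma on the recovered reads of all 38, at 5.91 on the log2 scale of reads (SE 1.42, adjusted p = 0.0554, with 0.37% of 13260 genes called higher). Those fits share 1 estimate of the spread with EC and MM, in which Bmpr1b held 0 reads in 18 of 20 libraries. Without the pair of SP libraries rich in neutrophil genes the difference was 1.96 (adjusted p = 0.941). The 5 smooth muscle or pericyte markers summed to 27.4 (C), 20.9 (L), 275 (M), 33.6 (N) and 140 RPKM (O) in healthy SP and to 162 (D), 68.5 (E), 567 (G), 129 (I) and 218 RPKM (J) in SP of myeloma-bearing mice. These groups overlapped, with medians of 33.6 and 162 RPKM, and the part of these cells in the Bmpr1b values was not tested. The other receptors of SP moved by -1.06 (Acvr2a) to 0.95 (Eng), all with SE of 0.73 or more.

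In OP, Bmpr1b was 0, 0.846, 0 and 0 RPKM in the healthy libraries L, M, N and O and 0.0185, 0.713, 4.15 and 0 RPKM in the myeloma libraries D, G, I and J. Only 1 library exceeded 1 RPKM. The change in SP minus that in OP was 1.42 (SE 0.93, adjusted p = 1.0), and the change in SP minus that in EC was 1.99 (SE 0.71, adjusted p = 0.909). Both of these differences share the SP libraries, and 0 members were called in either (0% of 10735 and 0% of 10596 genes), with 0 and 2 members at an unadjusted p below 0.05 (4.07% and 5.21% of genes).

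Acvr2b had lower values in EC of myeloma-bearing mice, a difference whose call again depended on the libraries fitted. The healthy and myeloma means on the log2(RPKM + 1) scale were 3.48 and 0.13, and the difference was -3.34 (SE 1.09, exact permutation p = 0.0476, limma adjusted p = 0.821 in the fit to EC alone). Voom-limma on the reads of EC alone gave -7.09 (SE 2.63, adjusted p = 0.808). All 4 EC libraries above 1 RPKM were healthy, so Acvr2b entered this fit only through the group where it was high, and its p-values carry that selection. With no filter on low values, over 12984 genes, the limma adjusted p was 0.866. The healthy library M, at 0 reads, overlapped with the myeloma libraries. The call appeared with the spread estimated over all 38 libraries (adjusted p = 0.00106, with 0.402% of 12683 genes called lower) and with voom-limma on all 38, at -7.01 (SE 1.43, adjusted p = 0.00856, with 0.49% of 13260 genes called lower), where most of the libraries added hold no Acvr2b read. Without D, E, G, I, J or M the difference was -4.21 to -3.31. Without C, L, N or O fewer than 4 libraries exceeded 1 RPKM, and the gene left the test.

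Acvrl1 in EC was 13.7, 2.84, 2.20, 9.48 and 7.94 RPKM in the healthy libraries C, L, M, N and O, and 15.2, 34.4, 27.9, 6.80 and 26.6 RPKM in the myeloma libraries D, E, G, I and J. Of the myeloma libraries 4 of 5 lay above every healthy one, and the share of all genes with such a separation was not counted. The difference of 1.54 (SE 1.00) had an exact permutation p of 0.0476 and a limma adjusted p of 0.938. With all 38 libraries in the fit its SE was 0.52 (unadjusted p = 0.00525, adjusted p = 0.18), and voom-limma on all 38 gave 1.86 (SE 0.94, adjusted p = 0.409), so it was called in none of these fits. Its partner Eng moved little in the same libraries, by -0.38 (SE 0.56, adjusted p = 0.985). Acvrl1 led the type I receptors in 2 of 5 healthy and 5 of 5 myeloma EC libraries, and Acvr1 in 3 and 0. Acvr1 itself differed by -1.32 (SE 1.11, adjusted p = 0.956).

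Bmpr2 was higher on average in EC and lower in OP of myeloma-bearing mice, and was called in neither. In EC it was 3.94, 2.0, 0, 0 and 0.0118 RPKM in healthy C, L, M, N and O and 0, 2.01, 33.4, 8.30 and 4.99 RPKM in myeloma D, E, G, I and J, a difference of 1.72 (SE 1.03, adjusted p = 0.931) that was 1.07 without letter G. In OP it was 11.4, 8.92, 5.14 and 0 RPKM in healthy L, M, N and O and 0, 0.450, 0 and 0 RPKM in myeloma D, G, I and J, with an exact permutation p of 0.143 for means of 2.39 and 0.13 on the log2(RPKM + 1) scale. For 4 against 4 libraries the smallest p is 0.0286. With all 38 libraries in the limma fit, the difference in EC had an SE of 0.79 (unadjusted p = 0.037, adjusted p = 0.379), and that in OP was -2.26 (SE 0.89, unadjusted p = 0.0153, adjusted p = 0.695). Voom-limma on all 38 gave 4.27 in EC (SE 2.62, adjusted p = 0.53) and -5.62 in OP (SE 2.78, adjusted p = 0.955). Bmpr1a, with Acvr1 a main type I receptor of SP and OP, differed by 0.50 (SE 0.81, adjusted p = 0.994) in SP and -0.39 (SE 0.80, adjusted p = 0.998) in OP. In EC, where it did not pass the filter of the fit to EC alone, its exact permutation p was 0.984, and it differed by -0.38 (SE 0.80, adjusted p = 0.984) with all 38 libraries in the limma fit and by -0.61 (SE 1.99, adjusted p = 0.967) with voom-limma on all 38.

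Detection marked 3 pairs of gene and cell type, by a rule chosen after their values were seen. Libraries above 1 RPKM were counted, and a gene was marked where the conditions differed by at least 3 libraries. Bmpr1b in SP went from 1 of 5 healthy to 4 of 5 myeloma libraries, a difference of that direction and size shown by 2.12% of the genes with a read in SP. Acvr2b in EC went from 4 of 5 to 0 of 5 and Bmpr2 in OP from 3 of 4 to 0 of 4, the opposite direction, shown by 1.19% and 1.03% of genes. The other 21 pairs of gene and cell type were not marked.

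Over the 10 MM libraries, Bmpr1a and Acvr2a were the members that passed the filter, and 0 of these 2 were called between bone lining and central marrow (0.203% of 8857 genes). Acvr2a was 2.55, 0.449, 1.70, 2.06 and 4.01 RPKM in the bone lining and 4.31, 4.45, 5.09, 9.62 and 5.34 RPKM in the central marrow for letters D, E, G, I and J. Every central library lay above every lining library, as in 0.565% of 8857 genes. The difference, lining minus central, was -1.16 (SE 0.44, exact permutation p = 0.00794, limma adjusted p = 0.747). Neither test paired the libraries by letter. Bmpr1a differed by -0.41 (SE 0.57, adjusted p = 0.984). Bmpr2 exceeded 1 RPKM in lining E (2.63 RPKM), lining G (1.69 RPKM) and central G (2.37 RPKM) and held 0 reads in 3 of the 10 libraries. Acvr1 stayed between 3 and 33 reads in every MM library, Acvrl1, Acvr2b and Bmpr1b held at most 1 read, and Eng exceeded 1 RPKM only in lining E (1.15 RPKM).

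Of 59 other genes of the pathway listed with the members, 47 were in the table. Between myeloma-bearing and healthy mice 0 of 24 tested in EC, 0 of 37 in SP and 0 of 36 in OP were called, as were 0 of 12 between the MM niches, with 1, 0, 2 and 2 at an unadjusted p below 0.05, beside 5.25%, 5.0%, 4.87% and 5.98% of all genes tested. Of the 46 tested between cell types, 5 were higher and 20 lower in EC than in SP, where 9.97% of all genes were higher and 15.5% lower, and 10 of 13 extracellular antagonists and modulators were among the lower. They included Nbl1, a secreted BMP antagonist of the DAN family, at means of 4.14 RPKM in EC and 332 RPKM in SP (difference -7.35, SE 0.51, adjusted p = 1.17e-14), and Twsg1, an extracellular BMP modulator, at 12.2 and 124 RPKM (-4.22, SE 0.52, adjusted p = 2.71e-08). The ligand Bmp2 had means of 10.8 RPKM in EC and 76.0 RPKM in SP (-3.74, SE 0.60, adjusted p = 6.17e-06). Between EC and OP 3 were higher in EC and 18 lower (10.4% and 17.5% of all genes), led by Dlx5, a homeobox gene induced by BMPs, at 1.18 and 54.9 RPKM (-4.81, SE 0.71, adjusted p = 1.21e-06).

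Between SP and OP 5 of 46 pathway genes were called, 2 higher in SP and 3 lower, near the shares over all genes (3.58% and 4.9%). The ligand Bmp7 averaged 0.00204 RPKM in SP and 12.4 RPKM in OP (-3.11, SE 0.33, adjusted p = 5.34e-09), and Bmp3, a ligand that opposes bone formation, 0.319 and 11.7 RPKM (-2.96, SE 0.38, adjusted p = 3.12e-07). Nbl1 was higher in SP by 2.67 (SE 0.54, adjusted p = 0.000829). Against MM, 17 of 46 pathway genes were higher and 1 lower in EC (16.9% and 26.3% of all genes), 32 and 0 in SP (19.3% and 22.5%), and 33 and 0 in OP (20.1% and 19.9%). Id1 and Id3, inhibitors of basic helix-loop-helix factors and direct BMP targets, averaged 1410 and 3550 RPKM in EC, 336 and 1560 in SP, 347 and 2200 in OP, and 2.17 and 15.9 in MM.

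The genes most like each receptor are given as a description, by Pearson correlation of log2(RPKM + 1) over the 38 libraries among 12683 genes. The libraries share their cell type, so these values largely follow cell type. Eng was most like Ednrb (r = 0.92), Emcn (r = 0.92) and Cd38 (r = 0.91), and Acvrl1 most like Serpinb9 (r = 0.91), Sema3f (r = 0.90) and Igfbp3 (r = 0.88). Acvr1 was most like Glt25d2 (r = 0.89), Igfbp5 (r = 0.87) and Ctgf (r = 0.86), and Bmpr1a like Runx1 (r = 0.85), Nt5e (r = 0.82) and Maged2 (r = 0.82). Bmpr1b was most like C1qtnf7 (r = 0.85), Mfap3l (r = 0.75) and Nfatc4 (r = 0.73), and C1qtnf7 averaged 37.5 RPKM in SP against 8.56 in OP and at most 0.0396 in EC and MM. For Acvr2b the values were 0.90 (Aqp11), 0.86 (Wscd1) and 0.83 (Olfr78), with 5 libraries above 1 RPKM to carry them. Bmpr2 and Acvr2a had no close match, with highest values of 0.59 (Actg2) and 0.65 (BC018507).

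Some members share exon sequence with genes on the other strand in GENCODE, and the counting is not stated to use strand. These are Orc4 for Acvr2a (446 bases) and Fpgs for Eng (61 bases), both in the table, and the antisense genes Gm17110 for Bmpr1a (290 bases) and Gm16031 for Acvrl1 (127 bases). Their part in these levels was not tested.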

How the data were processed

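RNA-seq was made from 38 pools of 100 sorted cells. The authors aligned single-end reads with STAR 2.4.0 to GRCm38 (mm10), counted them on genes with featureCounts (Subread 1.4.5-p1), kept genes above a count threshold and deposited RPKM values computed with edgeR. As whole multiples of the value of 1 read, these gave reads back for all 13260 genes (distance from a whole number at most 4.7e-09), 9735031 to 34883291 per library. RPKM values were compared with limma 3.58.1 (R 4.3.3) after adding 1 and taking log2, which understates changes of low genes. A gene entered a comparison when at least 4 of its libraries exceeded 1 RPKM. Empirical Bayes used a mean-variance trend, and calls needed a Benjamini-Hochberg adjusted p under 0.1 together with a log2 difference larger than 1 in size. Changes with myeloma were fitted on the libraries of 1 cell type, niches on MM, differences of changes on 2 cell types, and cell types on all 38. Single genes were tested by two-sided exact permutation (scipy 1.17.1), with no adjustment for the number of genes and cell types tested. The scripts were tested on simulated data. The members are named in every comparison, pathway genes where called (at most 3 by size), and the 3 most similar genes without numbered gene models. Members, lists and rules were chosen with earlier results of these data known. Same-letter libraries deviated together little (correlations from -0.043 to 0.085, 0 above 0.1), and letters were not taken to pair samples. Median correlations were 0.012 (MM niches) and 0.018 (niche cell types) for the same letter, beside -0.003 and -0.008 for other pairs. In pools of 100 cells such values cannot exclude pairing. Alternatives were the pseudocount, filter, scaling, trend, libraries fitted, voom-limma on recovered reads, letter as a block, and leaving out libraries. The p-values measure the spread between these samples only, which may be partly technical. Labels do not say what a letter stands for.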

Additional observations from a re-analysis of the deposited data

Results flagged for a closer look

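Within groups of 4 or 5, 8 of 45 sets of receptor values above 1 RPKM held 1 library far from the others by Dixon's criterion on log2(RPKM + 1), which chance gives in about 1 of 20. Far above their groups stood Bmpr1a in EC myeloma J (10.2 RPKM, in the EC library with the highest osteoprogenitor and chondrocyte marker sums, 655 and 24.8 RPKM), Bmpr2 in SP myeloma G (11.5 RPKM), Acvr2a in central MM I (9.62 RPKM), Acvr2b in OP myeloma J (1.20 RPKM, 25 reads), Eng in OP myeloma G (4.55 RPKM) and Eng in lining MM E (1.15 RPKM, 58 reads). Far below stood Acvr1 in EC healthy L (0.155 RPKM, 9 reads) and Acvr1 in SP healthy M (3.24 RPKM). The causes were not tested.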

How the results depend on the processing

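Among the 21 called pairs of member and cell type contrast, 20 kept direction and call in every alternative that could be fitted, and the exception was Eng between OP and MM. The 3 Acvr2b pairs had no value in myeloma-bearing mice alone, where the EC libraries held 0 to 16 reads and the gene did not pass the filter. Over all 38 libraries Acvr2b passed the filter only through EC and Bmpr1b only through SP, the groups where they were high. The count of members called moved from 0 to 1 in EC (Acvr2b) and from 0 to 1 in SP (Bmpr1b) for myeloma-bearing against healthy mice with all 38 libraries in the fit and with voom-limma on all 38. Of all genes, 1.18% and 1.89% were called in EC and 0.221% and 0.618% in SP. For SP against OP the count of members moved from 0 to 2 (Bmpr1b and Acvrl1) with a pseudocount of 0.1 RPKM (8.09% of all genes called), and to 1 in myeloma-bearing mice alone (Bmpr1b, 6.9% of genes) and with voom-limma on all 38 (9.23%). Members gained with voom-limma on all 38 were Bmpr1b for EC minus OP (-3.44, adjusted p = 0.0141), Bmpr1a for EC minus MM (-3.61, adjusted p = 0.0222), Acvrl1 for SP minus MM (5.04, adjusted p = 7.36e-05), Bmpr1b for OP minus MM (3.51, adjusted p = 0.00773) and Acvrl1 for SP minus OP (3.28, adjusted p = 0.0567). With a pseudocount of 0.1 these were Bmpr1b for EC minus OP (-1.48) and OP minus MM (1.48), Bmpr1a for EC minus MM (-1.92) and Acvrl1 for SP minus MM (2.56), and in myeloma-bearing mice alone Bmpr2 for EC minus OP (2.37) and EC minus MM (1.72), Acvr1 for EC minus OP (-1.47) and Acvrl1 for SP minus MM (1.16). Leaving out 1 letter at a time gave 0 to 1 for SP against OP (Bmpr1b without I; 7.01 to 8.85% of genes), 4 to 5 for EC against OP (Acvr1 without M; 24.9 to 28.6%), 4 to 5 for SP against MM (Acvrl1 without D, I, J, L, M or N; 39.3 to 42.9%) and 2 to 3 for OP against MM (Eng lost without D, G, I, L or M; 36.3 to 40.3%).

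Uncalled directions turned as follows, and the cause was not tested. With voom-limma on all 38, Acvr2a was -0.16 for EC minus MM and -0.31 for EC minus OP, Bmpr2 was -0.24 for OP minus MM and -1.11 for SP minus MM, and Acvrl1 was 0.32 for the change in SP minus that in EC. In myeloma-bearing mice alone, Acvr2a was -0.43 and Bmpr2 -0.65 for OP minus MM, and Bmpr1a was 0.21 and Bmpr2 0.81 for SP minus OP. With a pseudocount of 0.1, Bmpr2 was -0.29 for SP minus MM. Without the SP libraries rich in neutrophil genes, chosen after seeing the data, the change of Bmpr1a in SP was -0.082. With 1 letter left out, Acvr2a ran from -1.82 to 0.60 for the change in SP minus that in EC, from -0.048 to 1.71 for the change in SP minus that in OP, from -0.36 to 0.79 for EC minus OP and from -1.42 to 0.43 for its change in EC. Bmpr1a ran from -0.86 to 0.19 for lining minus central, from -0.074 to 1.68 for the change in SP minus that in OP, from -0.93 to 0.032 for its change in OP, from -0.042 to 0.96 for its change in SP and from -0.46 to 0.25 for SP minus OP. Bmpr2 ran from -0.34 to 0.15 for its change in SP, from -0.078 to 0.36 for SP minus MM and from -0.78 to 0.056 for SP minus OP.

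With the letter as a replicate block, 0 members were called between MM niches and in both differences of changes, and 6, 4, 0, 4, 4 and 3 in the cell type pairs, the counts without it. The shares of all genes called with the block were 0.135% between niches and 0% in both differences. They were 25.7% for EC and SP, 28.2% for EC and OP and 8.75% for SP and OP. Against MM they were 43.4% for EC, 42.0% for SP and 40.1% for OP. Genes called between MM niches went from 18 to 12. Counting of rare transcripts from 100 cells limits values of a few reads.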

Other observations

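Bmpr1a held exactly 1 read in 6 of 10 EC libraries, a pattern shared with few genes. Exactly 1 read in 6 or more EC libraries was seen in 12 of 13260 genes (0.0905%). This was counted after the values were seen, and its cause was not tested.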
